A study of Mus musculus with 6 samples.

Results

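The FOS proteins (Fos, Fosb, Fosl1 and Fosl2), the JUN proteins (Jun, Junb and Jund) and the EGR proteins Egr1, Egr2 and Egr3 are transcription factors whose genes were followed here in cultured mouse natural killer (NK) cells. These 10 genes were chosen by name and matched by symbol to the Ensembl IDs of the count tables, and all 10 were found among the 56953 genes. NK cells are lymphocytes that kill infected or malignant cells. The hypoxia group was cultured at 1% oxygen for 7 days and the normoxia group at 20% oxygen for 7 days, with 3 libraries in each. All cells came from the spleen of wild-type C57BL/6 mice and were grown with 1700 U/ml of recombinant human interleukin-2 and 5% CO2. The labels call the libraries biological replicates without saying whether they are separate mice, pools or cultures, so p-values measure only the spread between these libraries. The libraries are bulk RNA, so fewer cells with a transcript and less of it per cell cannot be told apart.

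FOS and JUN proteins pair through leucine zippers to form the factor AP-1, and JUN proteins can also pair with each other. EGR proteins bind GC-rich sites through zinc fingers. Most of these genes are immediate early genes, which a stimulus acting through kinase cascades switches on without new protein synthesis, and their mRNAs are short-lived. In lymphocytes, AP-1 acts together with NFAT at cytokine genes, while Egr2 and Egr3 are known as restraints on T cell activation.

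Promoters of 4 members are shown, chosen after the matches were seen, as examples of the CArG box, the TGACG core, the EGR site and a variant AP-1 site. RefSeq's table (build GRCm38.p6, not the authors' build) held promoters for 7 of the 10 members, without entries for Fosl1, Egr1 and Egr3. Each line gives the 250 bases before the transcription start, 5′ to 3′, with motif matches in capitals.
Egr2, chr10:67537619-67537868, plus strand: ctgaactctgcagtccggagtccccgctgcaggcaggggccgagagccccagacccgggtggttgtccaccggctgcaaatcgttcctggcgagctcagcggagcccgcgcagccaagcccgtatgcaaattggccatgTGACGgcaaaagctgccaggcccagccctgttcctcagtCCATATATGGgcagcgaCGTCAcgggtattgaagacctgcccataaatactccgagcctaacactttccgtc
Fos, chr12:85473640-85473889, plus strand: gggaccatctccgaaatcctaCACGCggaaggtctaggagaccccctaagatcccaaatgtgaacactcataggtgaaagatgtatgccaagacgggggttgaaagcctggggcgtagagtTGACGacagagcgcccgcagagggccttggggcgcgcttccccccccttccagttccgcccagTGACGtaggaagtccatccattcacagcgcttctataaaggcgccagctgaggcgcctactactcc
Fosb, chr7:19310046-19310295, minus strand: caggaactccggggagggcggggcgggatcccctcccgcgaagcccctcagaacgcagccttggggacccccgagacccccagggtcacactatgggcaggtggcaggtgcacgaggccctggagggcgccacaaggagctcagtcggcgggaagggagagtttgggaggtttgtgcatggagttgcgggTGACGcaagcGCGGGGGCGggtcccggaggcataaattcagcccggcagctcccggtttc
Jun, chr4:95052223-95052472, minus strand: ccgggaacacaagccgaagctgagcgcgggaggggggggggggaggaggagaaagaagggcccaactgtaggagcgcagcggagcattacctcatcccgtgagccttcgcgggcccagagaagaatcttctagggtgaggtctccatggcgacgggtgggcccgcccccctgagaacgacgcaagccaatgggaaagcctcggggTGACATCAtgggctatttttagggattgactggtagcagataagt
For Egr2 the table lists 5 starts, and the first of those with the most matches is printed. Matches were sought on both strands for the CArG box, which serum response factor binds, the cyclic AMP response element (TGACGTCA) and its core (TGACG, which the full element contains), the AP-1 site (TGANTCA), a variant AP-1 site (TGACATCA), the EGR site (GCGNGGGCG) and the cores of the HIF site (ACGTG and GCGTG). The Egr2 window held a CArG box 72 to 63 bases before the start and the TGACG core 2 times, at 111 to 107 and, on the other strand, 55 to 51 bases. A CArG box stood in 1.47% of the 32851 promoter windows and the core in 17.8%. The Fos window held the core 2 times, at 129 to 125 and 66 to 62 bases before its start, and GCGTG, found in 28.2% of windows, on the other strand. The Fosb window held the core at 60 to 56 bases and an EGR site at 50 to 42 bases. The EGR site stood in 4.70% of all windows, and among the scanned members also in that of Fosl2. In the Jun window the variant AP-1 site TGACATCA lay 45 to 38 bases before the start, and 2.93% of all windows held it. Of the windows not shown, that of Junb held the TGACG core at 106 to 102 bases and GCGTG 2 times. The ACGTG core, in 16.6% of all windows, was found for Jund and for another start of Egr2. No scanned member window held TGACGTCA (1.55% of all windows) or TGANTCA (6.75%). These matches describe letters and show no binding.

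Each library held between 55104810 and 55794698 estimated counts, so 1 count was worth about 0.018 CPM (a count scaled to the size of its library, here by the TMM method, and the unit of all levels below). The quasi-likelihood test of edgeR, adjusted by Benjamini-Hochberg and read at a threshold of 0.05, called 1745 of 15591 genes higher in hypoxia and 1516 lower. Changes are given as the log2 ratio of hypoxia over normoxia. Scaling by library size alone gave 2384 higher and 998 lower. Libraries that share a replicate number deviated together, so a fit with the replicate number as a block (the replicate block) is given beside each member whose call it changes and each list whose count it moves. It called 2988 genes higher and 3120 lower. The replicate 1 libraries of both groups stood apart from the other 4. The NK cell list was present, with all 10 of its genes tested, 0 higher and 2 lower in hypoxia, 3 lower without both replicate 1 libraries, and a summed level of 17175 to 20089.8 CPM in hypoxia and 18862 to 20691 CPM in normoxia. Gzmb (granzyme B) and Il2rb (a chain of the interleukin-2 receptor) led it, and neither was called. The 2 called lower, named after their values were seen, were Eomes (log2 ratio -0.63, edgeR adjusted p = 0.0028) and Klre1 (-0.35, 0.021). The median log2 ratio of the list was -0.25. The block called 2 of the list higher and 6 lower, and 4 were lower without hypoxia replicate 3, 1 without hypoxia replicate 2, 4 with no filter on low counts and 5 by DESeq2. Erythroid and platelet markers summed to at most 0.438 CPM, B cell markers to at most 1.14 CPM and neutrophil markers to at most 1.91 CPM per library.

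All 10 members passed the filter on low counts, from Fosl1 with 79 to 150 counts per library to Egr1 with 10289 to 37591. Egr2 and Egr3 rose and Fosl2 fell in hypoxia. With the replicate block Egr1, Fos and Fosb rose as well, and Jun and Jund fell as well. Thus 2 of 10 members were called higher and 1 lower, against 11.2% higher and 9.72% lower among all tested genes. With the replicate block 5 were called higher and 3 lower, against 19.2% and 20.0% of all tested genes. The median log2 ratio of the 10 was 0.21, and that of all tested genes -0.01. The libraries of the groups were fully separate for Egr2 and Egr3, which were higher in hypoxia (19.6% of all tested genes), and for Fosl2 and Jund, which were lower (18.7%). Within all 3 same-numbered pairs, 5 members were higher in hypoxia (Fosb, Egr1, Egr2, Egr3 and, by a margin that rounds to 0.00 in replicate 1, Fos), against 31.0% of all tested genes. Another 4 were lower in all pairs (Fosl1, Fosl2, Jun and Jund), against 32.4%.

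**Figure D1:**
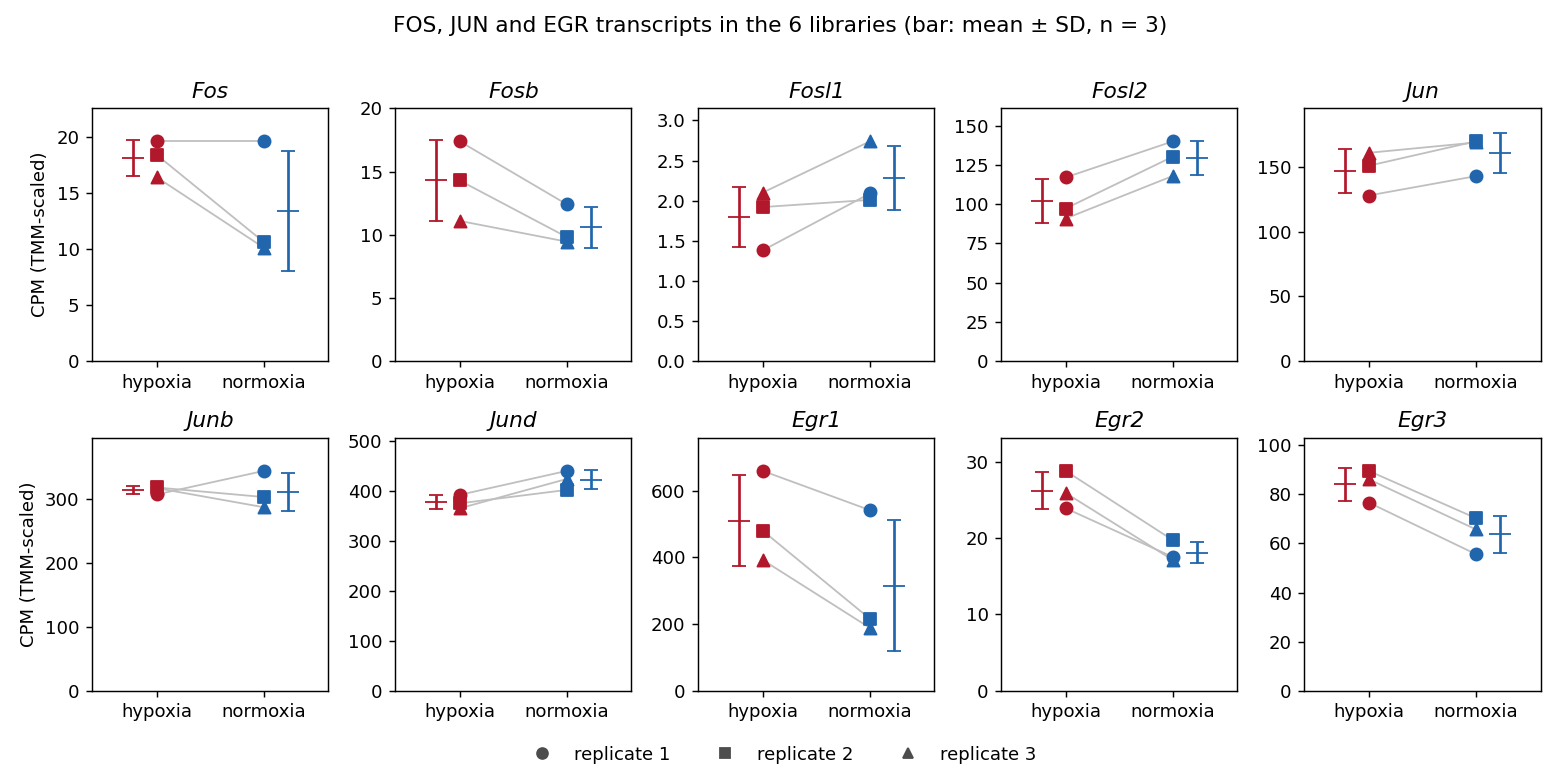
Level of each member in every library, in TMM-scaled CPM on axes that start at 0, with hypoxia left of normoxia, grey lines joining libraries of the same replicate number and bars giving mean ± SD (n = 3). The lines of Egr2 and Egr3 are near parallel, whereas replicate 1 of Egr1 and Fos is high in both groups.

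Among the EGR genes, Egr2 (ENSMUSG00000037868) had 23.9, 28.8 and 25.9 CPM in hypoxia replicates 1 to 3, against 17.5, 19.7 and 17.1 CPM in normoxia replicates 1 to 3. The lowest hypoxia library lay above the highest normoxia library. The means were 26.2 ± 2.46 CPM in hypoxia and 18.1 ± 1.38 CPM in normoxia (SD, n = 3 each), a log2 ratio of 0.53 (SE 0.09, edgeR adjusted p = 0.0036). Under all alternative settings run, Egr2 remained called, with log2 ratios of 0.47 to 0.62.

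Egr3 (ENSMUSG00000033730), which like Egr2 is induced through the calcium and NFAT pathway in lymphocytes, had 76.7, 89.6 and 86.2 CPM in hypoxia, against 55.6, 70.3 and 65.7 CPM in normoxia. Again no library of either group fell within the range of the other, and replicate 1 was the lowest of each group. The log2 ratio was 0.40 (SE 0.10, edgeR adjusted p = 0.018). Without hypoxia replicate 2 it was 0.36 (edgeR adjusted p = 0.079) and without hypoxia replicate 3 it was 0.38 (edgeR adjusted p = 0.063), so that the call was lost.

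Egr1 (ENSMUSG00000038418), the most abundant EGR gene, had 659, 480 and 392 CPM in hypoxia, against 541, 215 and 188 CPM in normoxia. Hypoxia was higher within each replicate number, yet normoxia replicate 1 lay above hypoxia replicates 2 and 3. The same-numbered differences were 0.28, 1.16 and 1.06 on the log2 scale for replicates 1, 2 and 3. Egr1 averaged 510 ± 136 CPM in hypoxia and 315 ± 196 CPM in normoxia (SD, n = 3 each; log2 ratio 0.70 ± 0.36 SE, edgeR adjusted p = 0.20), a difference that did not pass. With the replicate block the log2 ratio was 0.83 (SE 0.13, edgeR adjusted p = 0.00041). It was 1.11 without both replicate 1 libraries (edgeR adjusted p = 0.00015), 1.34 without normoxia replicate 1 (edgeR adjusted p = 0.00072) and 0.69 with no filter on low counts (edgeR adjusted p = 0.00074). The other single omissions did not pass. Smaller ratios were 0.43 without normoxia replicate 3 (edgeR adjusted p = 0.45), 0.47 without hypoxia replicate 1 (0.46) and 0.48 without normoxia replicate 2 (0.46). Larger ones were 0.76 without hypoxia replicate 2 (edgeR adjusted p = 0.26) and 0.86 without hypoxia replicate 3 (0.18).

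Summed over these EGR genes, the level was 759, 598 and 504 CPM in hypoxia replicates 1 to 3, against 614, 305 and 271 CPM in normoxia replicates 1 to 3. Egr4, the remaining family member, held 8 to 18 counts in hypoxia and 3 to 10 counts in normoxia and was not tested.

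Of the FOS genes, Fos (ENSMUSG00000021250) had 19.6, 18.4 and 16.4 CPM in hypoxia, against 19.6, 10.6 and 10.1 CPM in normoxia. Like Egr1, it was highest in replicate 1 of each group, and in replicate 1 hypoxia and normoxia were level (a log2 difference of 0.00, against 0.80 and 0.70 in replicates 2 and 3). The log2 ratio of 0.44 (SE 0.22) did not pass (edgeR adjusted p = 0.20). With the replicate block it was 0.48 (SE 0.13, edgeR adjusted p = 0.0099), without both replicate 1 libraries 0.75 (edgeR adjusted p = 0.00099), without normoxia replicate 1 0.81 (edgeR adjusted p = 0.00047), and with no filter on low counts 0.43 (edgeR adjusted p = 0.018). It was 0.26 without normoxia replicate 3 (edgeR adjusted p = 0.47) and 0.29 without normoxia replicate 2 (0.48).

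Fosb (ENSMUSG00000003545), whose protein is closely related to Fos, had 17.4, 14.3 and 11.1 CPM in hypoxia, against 12.4, 9.81 and 9.45 CPM in normoxia. Each hypoxia library was above the normoxia library of its number, while hypoxia replicate 3 lay below normoxia replicate 1. The log2 ratio was 0.43 (SE 0.17, edgeR adjusted p = 0.093). Under the block it was 0.42 (SE 0.08, edgeR adjusted p = 0.0016). Fosb also passed without normoxia replicate 1 (edgeR adjusted p = 0.032), without hypoxia replicate 3 (0.027) and with no filter on low counts (0.012). It did not pass without hypoxia replicate 1, at a log2 ratio of 0.27 (edgeR adjusted p = 0.29), or without both replicate 1 libraries, at 0.40 (0.065).

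Fosl2 (ENSMUSG00000029135), which encodes Fra-2, moved the other way, with 117, 97.2 and 90.8 CPM in hypoxia, against 140, 130 and 118 CPM in normoxia. Its groups did not overlap, with hypoxia replicate 1 just under normoxia replicate 3. The means were 102 ± 13.8 CPM in hypoxia and 130 ± 10.8 CPM in normoxia (SD, n = 3 each), and the log2 ratio was -0.35 (SE 0.11, edgeR adjusted p = 0.042). The call was lost with scaling by library size (edgeR adjusted p = 0.10) and with a stricter filter (0.052). It was also lost without hypoxia replicate 2 (0.16), hypoxia replicate 3 (0.15), normoxia replicate 1 (0.077) or normoxia replicate 2 (0.11). With the replicate block the edgeR adjusted p was 0.00023, and without both replicate 1 libraries it was 0.0061 at a log2 ratio of -0.40.

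Fosl1, which encodes Fra-1, had 1.38, 1.92 and 2.10 CPM in hypoxia, against 2.09, 2.01 and 2.74 CPM in normoxia. The groups overlapped, and the log2 ratio of -0.34 (SE 0.21) passed neither without the replicate block nor with it (edgeR adjusted p = 0.29 and 0.11).

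The JUN genes were the most even of the families. Jund, a JUN gene with a steady level in many resting cells, had 392, 375 and 365 CPM in hypoxia, against 440, 402 and 424 CPM in normoxia. All hypoxia libraries were lower than all normoxia libraries, by a log2 ratio of -0.16 (SE 0.07, edgeR adjusted p = 0.17, 0.026 under the block and 0.17 without both replicate 1 libraries). Jun itself had 128, 151 and 161 CPM in hypoxia, against 143, 170 and 169 CPM in normoxia. It was lower within each number (-0.16, -0.17 and -0.07 on the log2 scale), and its log2 ratio of -0.13 (SE 0.10) had an edgeR adjusted p of 0.42, or 0.047 with the replicate block and 0.27 without both replicate 1 libraries. Junb, a JUN protein that can counteract Jun, had 307, 318 and 317 CPM in hypoxia, against 344, 303 and 287 CPM in normoxia. Its hypoxia libraries lay within the normoxia range, with a log2 ratio of 0.01 (SE 0.08, edgeR adjusted p = 0.94). By edgeR 0 of the 3 JUN genes were called, 0 had an unadjusted p under 0.05, and DESeq2 and limma-voom called 0.

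**Figure D2:**
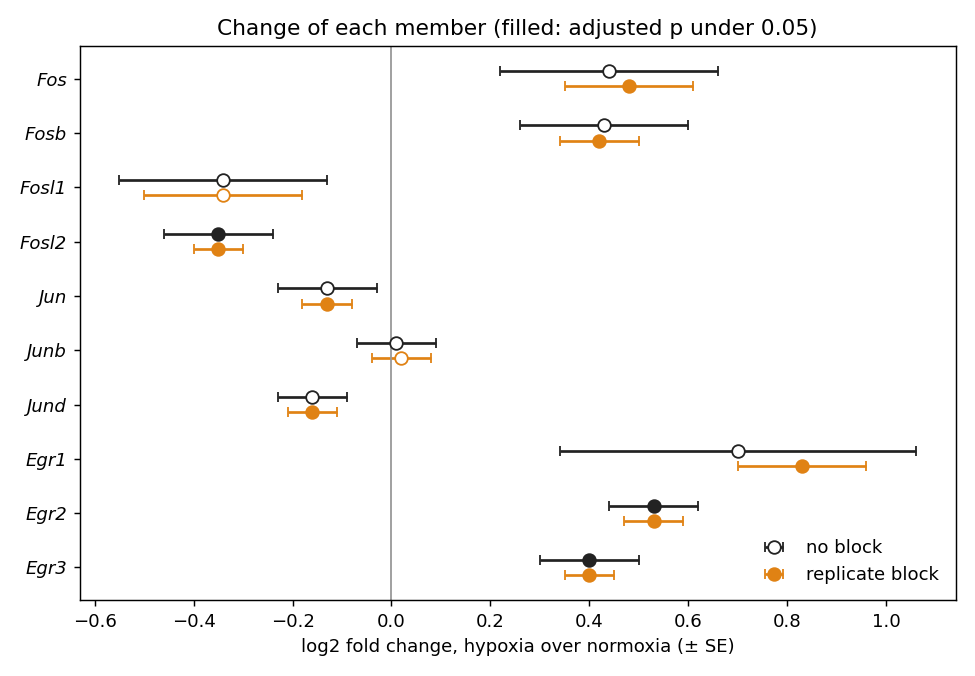
Log2 fold change of each member, hypoxia over normoxia, with its SE, in the fit without a block (black) and with the replicate block (orange), where filled points have an adjusted p under 0.05. Estimates differ little between the fits, whereas the SE of Egr1 is 0.36 without and 0.13 with the block.

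Replicate 1 was the highest library of its group in both groups for 5 members (Fos, Fosb, Fosl2, Jund and Egr1), while this held for 23.6% of all tested genes. Egr2 and Egr3 did not share this pattern. What sets the replicate 1 libraries apart is not given by the labels, and its part in the Egr1 and Fos values was not tested.

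Levels of different genes were compared as CPM per kb of the longest coding transcript. Jund was the highest, at 226 ± 8.38 CPM per kb in hypoxia and 253 ± 11.4 CPM per kb in normoxia (SD, n = 3 each), followed by Junb at 174 ± 3.21 CPM per kb in hypoxia and 172 ± 16.2 in normoxia. Egr1 came next in hypoxia, at 114 ± 30.3 CPM per kb, and its 70.2 ± 43.8 CPM per kb in normoxia overlapped the level of Jun, at 46.0 ± 5.30 in hypoxia and 50.4 ± 4.83 CPM per kb in normoxia. Egr3 stood at 21.4 ± 1.70 CPM per kb in hypoxia and 16.2 ± 1.92 in normoxia, and Fosl2 at 15.6 ± 2.11 CPM per kb in hypoxia and 19.8 ± 1.65 in normoxia. Per kb, all Egr3 libraries were above all Fosl2 libraries in hypoxia (19.5 to 22.7 against 13.9 to 17.9 CPM per kb). In normoxia all Egr3 libraries were below all Fosl2 libraries (14.1 to 17.8 against 18.1 to 21.4 CPM per kb). This order depends on the transcript lengths used, 6537 bases for Fosl2 and 3940 bases for Egr3. In CPM not divided by length, Fosl2 was above Egr3 in every library of both groups. The ranges were 90.8 to 117 against 76.7 to 89.6 CPM in hypoxia and 118 to 140 against 55.6 to 70.3 CPM in normoxia. Egr2, at 8.84 ± 0.830 CPM per kb in hypoxia and 6.10 ± 0.466 in normoxia, and Fos, at 8.59 ± 0.772 in hypoxia and 6.36 ± 2.54 in normoxia, were neighbours whose ranges overlapped. Fosb followed at 3.77 ± 0.840 CPM per kb in hypoxia and 2.79 ± 0.430 in normoxia. Fosl1 was the lowest, at 0.967 ± 0.200 CPM per kb in hypoxia and 1.22 ± 0.215 in normoxia.

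**Figure D3:**
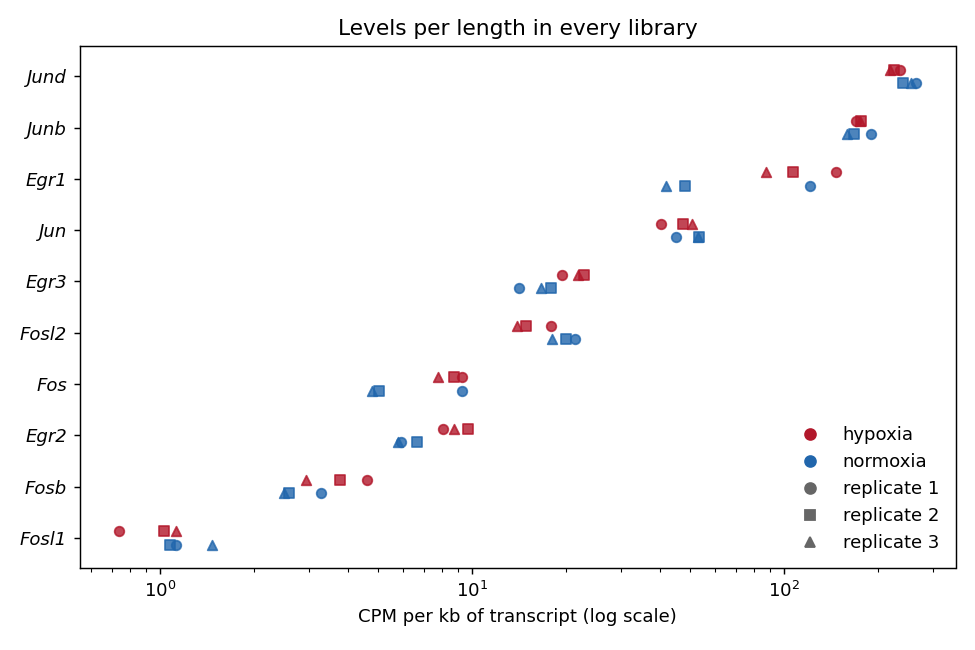
Level of each member per kb of its longest coding transcript in every library, on a log axis, with hypoxia (red) above normoxia (blue) and symbols for replicate numbers. Jund and Junb lie at the top, Fosl1 near 1 CPM per kb, and Egr1 has the widest spread.

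In these libraries the make-up of the FOS family differed between the oxygen levels. Fosl2 made up 55.1%, 52.3% and 54.0% of FOS transcripts per length in hypoxia replicates 1 to 3, against 61.0%, 69.6% and 67.4% in normoxia replicates 1 to 3. Its share was lower in all hypoxia libraries than in all normoxia libraries, replicate 1 included. The share of Fos was 28.5%, 30.7% and 30.2% in hypoxia, against 26.4%, 17.5% and 17.8% in normoxia. For Fosb it was 14.1%, 13.3% and 11.4% in hypoxia, against 9.36%, 9.07% and 9.30% in normoxia. Neither share overlapped between the groups, and both were higher in hypoxia. How many shares of other gene families separate as fully was not counted. Levels were fully separate for 19.6% of all tested genes (higher in hypoxia) and 18.7% (lower). Shares add up to the whole family, so a lower Fosl2 share raises the others, and the separations are not independent. In replicate 1 Fos stood at 19.6 CPM in both groups although its share differed. Shares do not depend on how libraries are scaled to each other, and with 3 libraries a group an exact two-sided permutation test on a single share cannot go below 0.10. The summed FOS level was 156, 132 and 120.3 CPM in hypoxia, against 174, 153 and 141 CPM in normoxia, and these ranges overlapped, while each hypoxia sum was below the normoxia sum of its number.

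In the JUN family Jund held 52.8%, 50.2% and 49.2% of transcripts per length in hypoxia and 52.9%, 52.2% and 54.5% in normoxia. The ranges overlapped, and the hypoxia share was the lower within each number, though nearly level in replicate 1. Among the EGR genes Egr1 held 84.2%, 76.7% and 74.1% in hypoxia and 85.8%, 66.2% and 65.2% in normoxia. That share was alike in the replicate 1 libraries and higher in hypoxia in the others.

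**Figure D4:**
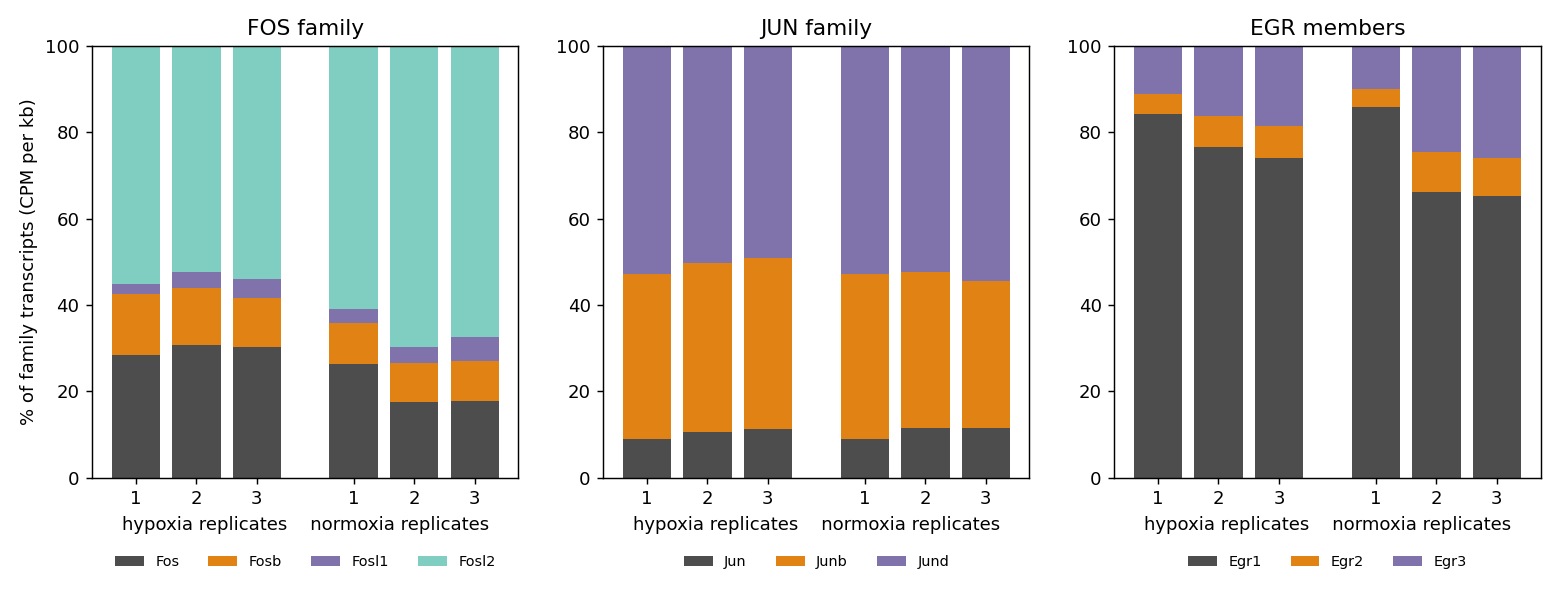
Share of each member in the transcripts of its family per length, in percent, for each library, with the 3 hypoxia libraries left of the 3 normoxia libraries. Fosl2 takes 52.3% to 55.1% of FOS transcripts in hypoxia and 61.0% to 69.6% in normoxia.

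The genes around these factors were described by lists. Counts of all lists, that of NK cells included, are to be read against 11.2% higher and 9.72% lower among all tested genes. With the replicate block these shares were 19.2% and 20.0%. No test of a list as a set was run. Upstream, the MAP kinase cascade carries signals to FOS, JUN and EGR genes. Of its 23 listed genes found, 1 rose and 2 fell, the median log2 ratio being -0.01. Mapk7, which encodes ERK5, rose (log2 ratio 0.29 ± 0.08 SE, edgeR adjusted p = 0.024), and the kinase genes Braf (-0.26 ± 0.08 SE, edgeR adjusted p = 0.034) and Map3k1 (-0.24 ± 0.07 SE, edgeR adjusted p = 0.035) fell. Without hypoxia replicate 2 or normoxia replicate 2, edgeR called 0 of the list in either direction, while 2 rose and 7 fell under the replicate block. Scaled by library size 2 rose and 0 fell, without hypoxia replicate 1 or without both replicate 1 libraries 0 rose and 2 fell, and leaving out hypoxia replicate 3 gave 1 higher and 0 lower. Leaving out normoxia replicate 1 or 3 gave 1 higher and 1 lower.

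Serum response factor and its cofactors bind the CArG box and its flank. Of these 6 genes 1 fell and 0 rose, the median log2 ratio being -0.11. The gene was Elk3, a ternary complex factor that can repress, at 89.8, 76.0 and 74.5 CPM in hypoxia, against 128, 106 and 97.1 CPM in normoxia (log2 ratio -0.46 ± 0.11 SE, edgeR adjusted p = 0.017). Its call was lost without hypoxia replicate 2 (0.074) or hypoxia replicate 3 (0.067), and under the block 2 of the list fell. Mrtfa and Mrtfb, the actin-regulated coactivators, had log2 ratios of -0.15 and -0.18 (edgeR adjusted p = 0.25 and 0.22).

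The EGR partner list held the corepressor genes Nab1 and Nab2 and the GC-box factor Sp1 among its tested members. Nab2, itself a known EGR target, had 87.3, 84.5 and 92.7 CPM in hypoxia, against 92.5, 86.8 and 86.1 CPM in normoxia. Its ranges overlapped, and so did those of Nab1 (log2 ratio 0.07) and Sp1 (-0.05). By edgeR, DESeq2 and limma-voom 0 of the 3 were called, and 0 had an unadjusted edgeR p under 0.05.

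Other bZIP factors, which can pair with FOS or JUN proteins or bind related sites, mostly fell where they were called. Of 16 tested, 1 rose and 6 fell, the median log2 ratio being -0.15. Jdp2, a repressor that pairs with JUN proteins, had 7.87, 8.92 and 8.25 CPM in hypoxia, against 16.0, 16.0 and 14.3 CPM in normoxia (log2 ratio -0.89 ± 0.09 SE, edgeR adjusted p = 0.00022). Atf3, a stress-induced immediate early gene, had 5.36, 3.81 and 4.09 CPM in hypoxia, against 10.8, 7.69 and 7.84 CPM in normoxia (log2 ratio -0.99 ± 0.17 SE, edgeR adjusted p = 0.0035). Batf3, a JUN partner in lymphoid and dendritic cells, had 0.368, 0.277 and 0.374 CPM in hypoxia, against 0.800, 1.05 and 1.22 CPM in normoxia (log2 ratio -1.59 ± 0.26 SE, edgeR adjusted p = 0.0024). For these genes every hypoxia library was below every normoxia library, which naming the smallest p of the list favours. Batf, Atf1 and Bach2 also fell and Nfe2l2, the gene of the antioxidant factor NRF2, rose. These were named after their values were seen. Batf and Atf1 (log2 ratio -0.28 and -0.29) lost their calls with scaling by library size (edgeR adjusted p = 0.078 and 0.059). They also lost them without hypoxia replicate 2 (0.11 and 0.14) or 3 (0.063 and 0.076). Batf lost its call without hypoxia replicate 1 or normoxia replicate 2 too (0.053 for both), and Atf1 without normoxia replicate 3 (0.053). The number that fell was 8 with the replicate block, 3 with scaling by library size and without hypoxia replicate 3, and 4 without hypoxia replicate 2 or normoxia replicate 2.

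Immediate early genes outside the FOS, JUN and EGR families went in both directions, with 2 higher and 8 lower of 30 tested, the median log2 ratio being -0.09. Gadd45b, a stress gene acting on kinase signalling, had 12.6, 13.6 and 13.4 CPM in hypoxia, against 39.3, 41.4 and 41.4 CPM in normoxia (log2 ratio -1.63 ± 0.07 SE, edgeR adjusted p = 3.2e-06). Klf2, a factor of lymphocyte quiescence and trafficking, had 19.9, 22.1 and 19.1 CPM in hypoxia, against 10.3, 9.78 and 9.52 CPM in normoxia (log2 ratio 1.05 ± 0.09 SE, edgeR adjusted p = 5.6e-05). Plk2, a polo-like kinase gene, had 5.97, 6.10 and 5.39 CPM in hypoxia, against 2.28, 1.56 and 1.81 CPM in normoxia (log2 ratio 1.63 ± 0.16 SE, edgeR adjusted p = 0.00016). For none of these genes did the groups overlap, which naming the smallest p of the list favours. Arc, Nr4a3, Klf10, Dusp5, Ppp1r15a, Zfp36l2 and Plk3 also fell, and were named after their values were seen. The counts were 4 higher and 11 lower with the replicate block, 5 and 7 when scaled by library size, 5 and 8 without both replicate 1 libraries, and 4 and 8 without normoxia replicate 1. Over all settings 2 to 5 genes were higher and 7 to 11 lower.

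Of 18 tested genes that AP-1 or EGR factors are known to regulate in lymphocytes or other cells, 2 rose and 5 fell, the median log2 ratio being -0.07. The cytokine gene Lif had 4.43, 6.67 and 4.34 CPM in hypoxia, against 11.4, 14.4 and 11.2 CPM in normoxia (log2 ratio -1.26 ± 0.18 SE, edgeR adjusted p = 0.0010). The adhesion gene Icam1 had 59.0, 66.1 and 66.3 CPM in hypoxia, against 85.3, 89.5 and 86.1 CPM in normoxia (log2 ratio -0.45 ± 0.07 SE, edgeR adjusted p = 0.0022). Ccnd1, the gene of the cell cycle protein cyclin D1, had 3.00, 3.59 and 4.31 CPM in hypoxia, against 1.03, 1.41 and 1.70 CPM in normoxia (log2 ratio 1.39 ± 0.22 SE, edgeR adjusted p = 0.0018). Il2ra, Csf2 and Fasl also fell and Ccl3 rose, named after their values were seen. Between 1 and 4 genes rose and 3 to 5 fell when single libraries were left out, with 1 higher when replicate 2 or 3 of either group was left out, and 3 lower without normoxia replicate 2. The number that rose was 4 without normoxia replicate 1, without both replicate 1 libraries, under the block and when scaled by library size.

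**Figure D5:**
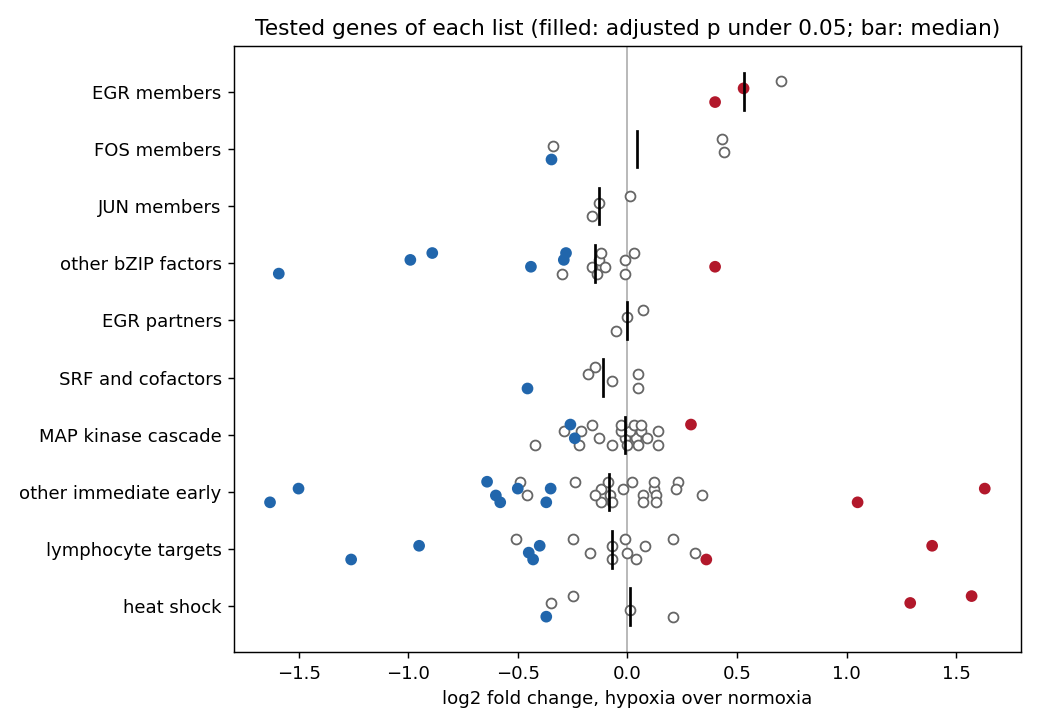
Log2 fold change (hypoxia over normoxia) of every tested gene of the member families and the surrounding lists, each point a gene, filled where the adjusted p was under 0.05 (red higher, blue lower), with black bars at list medians. The EGR members stand right of 0, while called genes of the other bZIP factors stand mostly left of it.

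Genes induced by heat and handling were listed because immediate early genes respond to handling as well. Of 7 tested, 2 rose and 1 fell. Hspa1a had 1.63, 2.29 and 1.80 CPM in hypoxia, against 0.552, 0.869 and 0.494 CPM in normoxia, and its near-identical copy Hspa1b, with which counts may be shared, also rose (log2 ratio 1.57 and 1.29, edgeR adjusted p = 0.0023 for both). Hspe1, a mitochondrial chaperonin gene, fell (log2 ratio -0.37 ± 0.11 SE, edgeR adjusted p = 0.039), and its call was lost with scaling by library size (0.097) and without hypoxia replicates 1 or 2 (0.13 for both) or normoxia replicates 2 (0.073) or 3 (0.12). Under the block 3 were higher and 3 lower. Leaving out normoxia replicate 1 gave 3 higher and 2 lower, and leaving out hypoxia replicate 3 gave 2 and 2.

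Markers of other cells moved with hypoxia too. The T cell list summed to 149 to 188 CPM in hypoxia and 94.0 to 111 CPM in normoxia, with 3 of 7 genes higher. It was led by Cd3g and Cd3d, both called higher (log2 ratio 0.87 and 1.07). The other gene called higher, Cd4, reached at most 0.866 CPM. Cd3e, Cd8a, Cd5 and Cd6 were not called (log2 ratio -0.05, 0.15, 0.48 and 0.05, edgeR adjusted p = 0.86, 0.67, 0.34 and 0.94). All but Cd3g and Cd3d were named after their values were seen. The basophil and mast cell list summed to 76.1 to 89.6 CPM in hypoxia and 19.1 to 27.2 CPM in normoxia, with 2 of 2 tested genes higher. Nearly all of this was Mcpt8 (74.3 to 87.1 CPM in hypoxia and 18.6 to 25.9 CPM in normoxia), while the defining genes Fcer1a and Ms4a2 reached at most 0.0178 CPM. The myeloid list summed to 50.8 to 83.6 CPM in hypoxia and 15.5 to 29.2 CPM in normoxia, nearly all Cd68, with 2 of 4 tested genes higher and 1 lower, C1qa at 0 in every library and Adgre1 at most 0.0190 CPM. The dendritic cell list summed to 316 to 357 CPM in hypoxia and 172 to 196 CPM in normoxia, nearly all Itgax, which NK cells also express, with 2 of 3 tested genes higher and 1 lower. The list of stromal and endothelial markers, nearly all Pecam1, summed to 192 to 210.4 CPM in hypoxia and 234 to 282 CPM in normoxia, with 1 of 3 tested genes lower. Cd79b, Cd14, S100a8, S100a9, Cpa3, Zbtb46 and Col1a2, the other most abundant tested markers, stayed under 10 CPM in every library. Of these, Cd79b (log2 ratio 1.86), S100a8 (5.65), S100a9 (5.69) and Cpa3 (1.48) were called higher. Cd14 (-1.39) and Zbtb46 (-0.71) were called lower, and Col1a2 (0.49) was not called. The neutrophil list thus had 2 of 2 tested genes higher and the B cell list 1 of 1. In normoxia S100a8 and S100a9 reached at most 0.0190 CPM. Leaving out single libraries moved some of these counts. The basophil and mast cell list had 1 gene higher without hypoxia replicate 1 or normoxia replicates 2 or 3, the dendritic cell list had 1 higher without replicate 2 or 3 of either group, and the stromal list had 0 lower without replicate 2 of either group. The part of these cells in the values of the FOS, JUN and EGR genes was not tested.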

How the data were processed

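Libraries of mouse spleen NK cells were made, per the labels' protocols, as strand-specific mRNA libraries on a DNBSEQ platform. Trim Galore 0.6.4, kallisto 0.4.6, edgeR 3.17 and the build GRCm39 are named in the submitters' processing notes. Of their order, their settings and the annotation release the sources used here say nothing. The files the authors deposited hold an estimated count per Ensembl gene, not normalized (69.5% whole numbers within 1e-06), and a log2 value per gene that equals the log2 CPM of these deposited counts with a prior count of 2. Estimated counts split reads between similar transcripts, which makes near-identical genes uncertain.

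Symbols came from the GENCODE M21 table, which names 52029 of 56953 IDs. Counts were rounded, filtered with filterByExpr (minimum count 10, minimum total 15, leaving 15591 genes), scaled with TMM and tested by quasi-likelihood in edgeR 4.0.16 (R 4.3.3), with Benjamini-Hochberg adjustment over all tested genes and a threshold of 0.05. The SE was taken as the size of the log2 ratio divided by the root of F. Pairwise log2 differences used a count offset of 0.5. The same steps were tested on simulated data. These were drawn without an effect of the replicate number, so they do not bear on the replicate block.

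Same-numbered libraries deviated together from their group means (correlations of 0.58, 0.47 and 0.42 over 15591 genes, each above the criterion of 0.1), so the numbers in the labels were taken to pair the libraries. Of the pairs with unlike numbers, hypoxia replicate 2 with normoxia replicate 3 (0.13) also passed the criterion, so it does not single out the label numbers. The remaining unlike pairs lay from -0.47 to -0.06. Deviations sum to 0 within a group, so anything the replicate 1 libraries have in common raises these correlations. No library repeated another of its group (chi-square per gene averaging 12.6 to 61.8).

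The alternatives were the replicate block, DESeq2 size factors, library size alone, the DESeq2 1.42.0 Wald test, limma-voom (limma 3.58.1), no filter, a filter of 1 CPM in 3 libraries, leaving out each library, and leaving out both replicate 1 libraries. The members, lists and tests were chosen with earlier results of these data known. Named were all members, up to 3 tested genes with the smallest p per surrounding list, the 2 most abundant tested genes per cell type list, and the 3 genes most like the most abundant member of each family. Other names are said to be chosen after their values were seen. Rps6ka4, on the MAP kinase list, was not analysed here.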

Additional observations from a re-analysis of the deposited data

How the results depend on the processing

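The members higher in hypoxia numbered 2, and 5 with the replicate block, 5 with no filter on low counts and 4 without both replicate 1 libraries. Leaving out single libraries gave 1 to 5, with 5 without normoxia replicate 1 and 1 without hypoxia replicate 2. The members lower in hypoxia numbered 1, 3 under the block, and 0 when scaled by library size or under the stricter filter, in edgeR at the adjusted threshold. At that threshold the member lost was Fosl2, which had an unadjusted p of 0.0082 in the fit as reported and was called by DESeq2 and limma-voom. Leaving out single libraries gave 0 to 1 lower. The block changed the calls of Fos, Fosb, Egr1, Jun and Jund and of no other member.

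Over all genes, 2988 were higher and 3120 lower under the block in place of 1745 and 1516, and 998 were lower when scaled by library size. Leaving out single libraries gave 1146 to 1980 higher and 804 to 1636 lower, with the fewest higher without normoxia replicate 2 and the fewest lower without hypoxia replicate 2. Among the members the only direction that turned was that of Junb, which was not called, at -0.01 without normoxia replicate 2 and -0.04 without normoxia replicate 3, in a range up to 0.09 without single libraries. The median of the other immediate early genes turned to 0.01 without normoxia replicate 1, that of the MAP kinase list to 0.07 when scaled by library size, and that of the AP-1 and EGR targets to 0.01 when scaled by library size or without both replicate 1 libraries. The cause of these changes was not tested. Fits that leave out a library rest on fewer samples. Scaling by library size moved the median log2 ratio over all genes to 0.08. Depth limits Fosl1 most among the members, at 79 to 150 counts per library.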

Other observations

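For the most abundant member of each family, the tested genes of at least 5 CPM with the most similar profile were found by Pearson correlation of log2(CPM + 0.5) over the 6 libraries, among 9497 genes. Picking the best of so many profiles over 6 libraries that share a culture design yields high values, so they are given as a description.

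Closest to Fosl2 were Tbc1d25 (r = 0.998), Gtpbp1 (r = 0.995) and Fiz1 (r = 0.994). Gtpbp1 had 129, 114 and 108 CPM in hypoxia, against 142, 133 and 129 CPM in normoxia. Closest to Jund were Tmem11 (r = 0.996), Fkbp8 (r = 0.994) and Tmem209 (r = 0.993). Fkbp8, which encodes an FK506-binding protein at mitochondria, had 231, 218 and 215 CPM in hypoxia, against 259, 236 and 245 CPM in normoxia.

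Closest to Egr1 were Chmp1a (r = 0.996), Zfp395 (r = 0.996) and Rarg (r = 0.995). Zfp395 had 165, 148 and 136 CPM in hypoxia, against 156, 114 and 112 CPM in normoxia, with replicate 1 highest in each group as for Egr1. Rarg, the gene of a retinoic acid receptor, had 9.53, 8.56 and 8.17 CPM in hypoxia, against 8.89, 7.13 and 6.67 CPM in normoxia.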
